A study of Homo sapiens with 44 samples.

Results

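Interferon-stimulated genes are the genes that a cell switches on after it senses an interferon. Described here are 40 of them, of 58721 genes counted, in cultured A549 cells and in xenograft tumours grown from them. They were taken by name from a list of well-known interferon targets. The rule uses no measured value, but the list was drawn up with earlier results of these data known, so it is not independent of them. All 40 names were found in the gene annotation, with DDX58 (RIG-I) under its older symbol. A549 is a human lung adenocarcinoma cell line. The groups are the parental line (WT) and isogenic A549 lines in which p300, a histone acetyltransferase and transcriptional coactivator encoded by EP300, has a truncated TAZ2 domain, labelled het1, het2 and homo. The 4 lines were each sequenced as cultured cells (3 libraries a line) and as untreated xenograft tumours collected at day 30 (4 tumours a line). Further tumours of WT and het1 received the vehicle DMSO or SAHA for 4 weeks (4 tumours a group). SAHA (vorinostat) blocks histone deacetylases. As the labels read, het1 and het2 are heterozygous lines and homo is a homozygous line. WT and homo are each represented by a single line, and each line was compared with WT on its own. A difference of genotype can therefore not be told apart from a difference between lines. Whether the libraries within a group stem from separate cultures or animals is not stated in the labels, and p-values measure the spread between these libraries, which may be technical in the cells.

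Type I interferons bind the receptor IFNAR, type III interferons bind IFNLR1 with IL10RB, and interferon gamma binds IFNGR. The receptors act through JAK kinases on transcription factors. STAT2 and IRF9 are parts of the complex ISGF3, which binds the interferon-stimulated response element (ISRE) of its target promoters, and promoters that answer interferon gamma often hold another element, the gamma-activated site (GAS). The coactivators p300 and its paralog CBP are recruited at these promoters, and the TAZ2 domain is one of the surfaces through which they bind activation domains of transcription factors. The products sense foreign RNA (DDX58, IFIH1), block the entry, translation or release of viruses (the IFITM, IFIT, MX, OAS and GBP families, BST2, RSAD2), modify proteins with ISG15 (HERC5, with USP18 as the protease that removes it) or feed back on the pathway (STAT2, IRF1, IRF7, IRF9). Many cancer cells keep some of these genes on without added interferon.

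Many promoters of these genes carry the letters of these elements. RefSeq promoters on GRCh38.p14, reaching from 250 bases before to 50 bases after the first listed transcription start, were at hand for 32 of the 40 genes. The ISRE was searched as GAAANNGAAA on both strands (TTTCNNTTTC on the other), and the GAS as TTCNNNGAA, which reads the same on both strands. The ISRE letters were in 20 of the 32 members' promoters (62.5%) and in 996 of all 27305 genes' promoters (3.65%). At least 2 such matches were in 13 of the 32. The GAS letters were in 8 of the 32 (25.0%) and in 7.88% of all. Stretches around the matches are printed for the members on which the results below turn, with the ISRE letters in capitals. All lie before the start, where the first match begins between 40 and 164 bases upstream. A match is a description of the sequence and does not show that a factor binds there. No ISRE match was in the windows of OAS1, STAT2, IRF1, IRF9 and SAMD9L among others.
IFI6 (chr1:27672256-27672368, minus strand): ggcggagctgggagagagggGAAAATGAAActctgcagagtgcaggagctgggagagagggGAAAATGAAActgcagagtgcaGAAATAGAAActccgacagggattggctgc
IFI27 (chr14:94110608-94110670, plus strand): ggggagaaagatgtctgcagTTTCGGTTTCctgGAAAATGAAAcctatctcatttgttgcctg
ISG15 (chr1:1013364-1013419, plus strand): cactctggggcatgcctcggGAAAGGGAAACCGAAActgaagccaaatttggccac
IFIT1 (chr10:89392487-89392549, plus strand): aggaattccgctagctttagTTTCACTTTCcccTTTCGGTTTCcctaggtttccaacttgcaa
IFITM1 (chr11:313980-314029, plus strand): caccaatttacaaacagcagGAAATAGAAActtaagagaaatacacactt
IFITM3 (chr11:320866-320932, minus strand): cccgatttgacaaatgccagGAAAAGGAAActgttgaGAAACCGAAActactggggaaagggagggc
BST2 (chr19:17405725-17405780, minus strand): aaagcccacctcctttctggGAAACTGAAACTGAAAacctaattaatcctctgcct
IFI44L (chr1:78620264-78620313, plus strand): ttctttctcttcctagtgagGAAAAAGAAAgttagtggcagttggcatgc
OAS3 (chr12:112938311-112938360, plus strand): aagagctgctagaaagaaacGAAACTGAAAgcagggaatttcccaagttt
GBP1 (chr1:89065306-89065355, minus strand): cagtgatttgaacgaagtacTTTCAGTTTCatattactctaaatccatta
IFIH1 (chr2:162318808-162318863, minus strand): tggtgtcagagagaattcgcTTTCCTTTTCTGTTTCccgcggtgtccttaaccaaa
HERC5 (chr4:88456974-88457074, plus strand): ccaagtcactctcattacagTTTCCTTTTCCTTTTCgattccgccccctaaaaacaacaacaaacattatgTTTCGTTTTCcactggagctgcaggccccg
In the stretches of ISG15, BST2, IFIH1 and HERC5 the capitals run through neighbouring matches that share bases. IFI27 and IFIT1 hold 2 matches, set 3 bases apart, and those of IFI27 lie on opposite strands.

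Total counts ran from 61168373 to 99593214 per library over all 44. Levels are CPM, counts scaled to 1000000 per library after TMM scaling (edgeR's factors, which set the bulk of genes level between the libraries of a table). CDKN2A, deleted in A549, had 0 counts in all libraries. Of the A549 epithelial markers, KRT8 lay between 400.3 and 3222 CPM, KRT18 between 324.9 and 2317 and SLC2A1 between 19.1 and 417.6 over all libraries. KRT19, EPCAM and CDH1 were low in some libraries, with lowest values of 0.0146, 0.807 and 1.40 CPM and highest of 243.7, 172.4 and 412.1. EP300 was read in every line (mean 115 CPM in WT cells and 185, 153 and 190.5 in het1, het2 and homo cells), and gene counts do not show a truncation. One library stood apart in the members. The het2 day 30 tumour of replicate 4 had the highest level of 38 of the 40 members in its group. The counts, medians and named values of het2 tumours in the comparisons below are therefore given with and without it. The medians by ISRE letters are given only with it. A smaller departure was in the het1 DMSO tumour of replicate 5, lowest in 31 of the 38 members with a mean of at least 1 CPM. Of all genes at that level, 21.4% were lowest in it. Both are described after the levels. Each table was scaled on its own, so levels set side by side across cells, day 30 tumours and treated tumours carry that limit.

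Members in culture were mostly low. The number with a mean of at least 1 CPM was 24 of 40 in WT cells, 26 in het1, 27 in het2 and 24 in homo, against 32, 35, 37 and 33 in the day 30 tumours of the same lines. The median member was at 2.39 CPM in WT cells and at 10.5 CPM in WT day 30 tumours. Per kilobase of exon, the level that can be compared between genes, OAS3 led in WT cells (19.2 CPM per kb), followed by IFITM2 (16.5) and OAS1 (15.9). IFI6 led in the het1 and het2 day 30 tumours, at 159.2 and 226.2 CPM per kb, against 21.9 in WT tumours. XAF1, which promotes cell death, had 0 counts in WT cells, as did RSAD2 (viperin) and IFI44L. A count of 0 over the 239613658 counts of these 3 libraries allows a level of up to 0.0125 CPM (3 counts; counting error only). The heat map of all members shows this division between culture and tumour, the rows that are dark in every cell library (IFI44L, MX2, OAS2, XAF1, BST2) and the bright column of the het2 tumour.

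**Figure D1:**
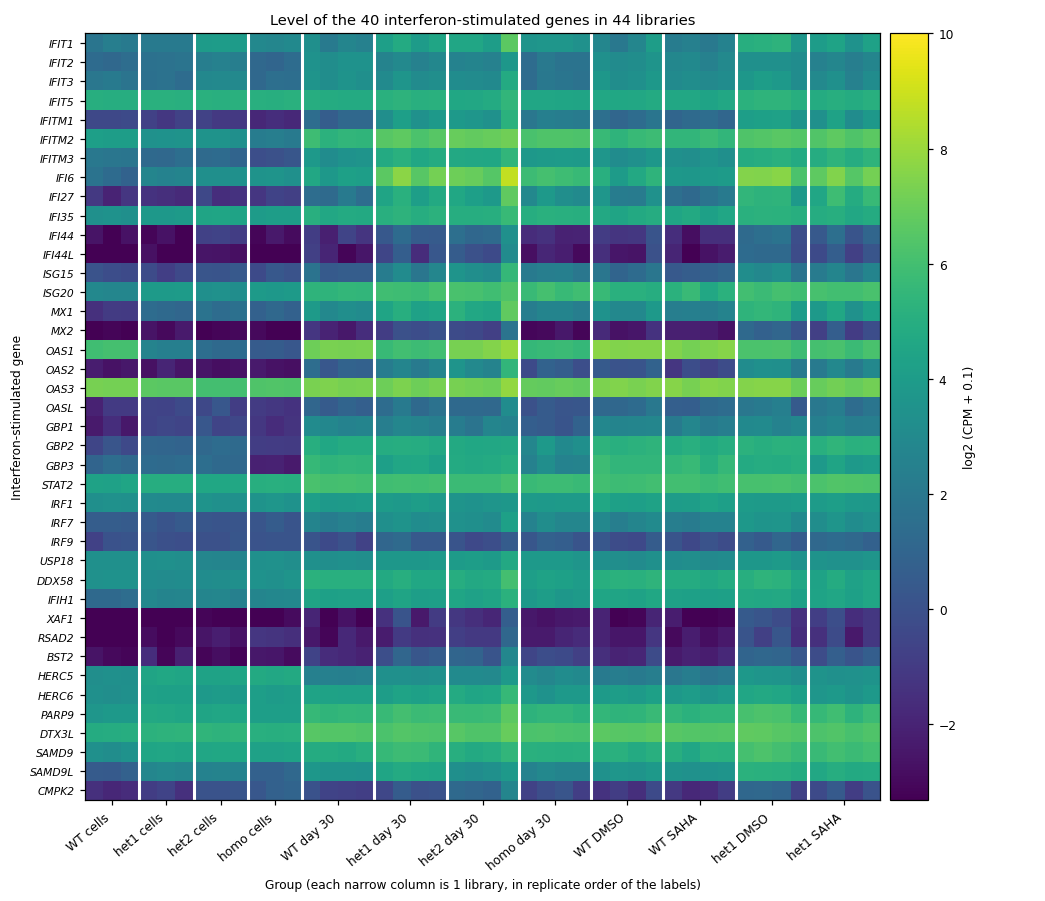
Heat map of the level of each of the 40 interferon-stimulated genes (rows) in each of the 44 libraries (columns, grouped by line and condition, white lines between groups), as log2 of CPM plus 0.1. Most rows are darker in the 12 cell libraries than in the 32 tumours, OAS1 and OAS3 are high in WT in every condition, and the last column of the het2 day 30 group is brighter than its 3 neighbours in most rows.

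The median SD between tumours of a group was larger over the members than over all genes in each of the 8 tumour groups, but in het2 and het1 DMSO this rested on 1 tumour. Over members with a mean of at least 1 CPM, the median SD of log2 CPM between the 4 tumours was 0.136 in WT, 0.188 in het1, 0.172 in homo and 0.474 in het2 at day 30. Over all genes the same medians were 0.0853, 0.106, 0.106 and 0.127. Under treatment the members' medians were 0.188 (WT DMSO), 0.154 (WT SAHA), 0.263 (het1 DMSO) and 0.211 (het1 SAHA), with all genes between 0.0972 and 0.114. In cultured cells the members' medians lay between 0.0715 and 0.0927 and those of all genes between 0.0481 and 0.0594. The members' median was the larger in each cell group too, so this excess was not confined to tumours. Counting error is larger for genes at low levels, and its part in this difference was not tested. Without replicate 4 the het2 median was 0.116 over the members and 0.128 over all genes, and without replicate 5 the het1 DMSO medians were 0.0976 and 0.0954. In WT SAHA tumours, 1 of 31 members and 6.38% of all genes ranged over more than 2-fold.

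The het2 tumour of replicate 4 exceeded the highest other het2 tumour by more than 2-fold in 18 of the 40 members, and its median ratio to the mean of the other 3 tumours was 1.95. IFI6, a small membrane protein of mitochondria and the endoplasmic reticulum, was at 131, 118, 90.5 and 443 CPM in replicates 0, 1, 3 and 4. IFI27, of the same family, was at 24.3, 18.0, 14.7 and 109 CPM. IFIT1, which binds the ends of foreign RNA and blocks its translation, was at 23.1, 23.2, 16.8 and 100.3 CPM. In each of these replicates 0, 1 and 3 lay close together and replicate 4 was several times higher. ISG15, the ubiquitin-like modifier, was at 11.7, 9.35, 8.07 and 46.9 CPM. OAS2, a synthetase of the oligoadenylates that activate RNase L, was at 11.9, 7.75, 6.11 and 43.5 CPM. BST2 (tetherin), which holds budding virions at the cell surface, was at 1.95, 1.82, 0.988 and 7.18 CPM. All 3 repeat the pattern of IFI6. The widest range was that of IFI44L, of little known function, at 1.36, 0.889, 0.685 and 8.46 CPM, and the dynamin-like GTPase MX2 was at 0.738, 0.649, 0.472 and 3.45 CPM. The guanylate-binding proteins moved less: GBP3 was at 28.4, 26.2, 28.0 and 32.9 CPM, highest in replicate 4 by a ratio of 1.19 to the mean of the others, GBP1 was at 4.82, 3.40, 6.61 and 5.96 CPM and GBP2 at 27.6, 24.2, 24.8 and 26.1 CPM, neither of them highest in replicate 4. In CPM, 31 of the 40 members had their highest value of all 44 libraries in this tumour. The share of all genes is not given for this count, and each table was scaled on its own, so it is not read as a result. The factors STAT2 and IRF1 moved little, with ratios of replicate 4 to the mean of the others of 1.22 and 1.14.

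Outside the 40 members, 23 of 26 further interferon-induced genes with a mean of at least 1 CPM were highest in the same tumour, with a median ratio of 1.36. The median log2 difference of this tumour from the others was 0.93 over the members and 0.01 over all genes, which TMM scaling holds near 0. Of the 37 members with a mean of at least 1 CPM, 35 were highest in this tumour and 17 lay over 2-fold above the median of the others. Of all genes at that level, the shares were 20.7% and 0.214%. Fibroblast markers summed to 109.5 CPM there and to between 226.2 and 356.5 CPM in the other het2 tumours, and 6 of 9 were lowest in it. Endothelial markers summed to 8.25 CPM, within the group's range of 6.13 to 8.51 CPM. The sum of 12 myeloid markers ran from 25.4 to 31.6 CPM in the 4 het2 tumours, where 3 of the 12 had a mean of at least 1 CPM. Among these markers, C1QA and TYROBP were at or near 0 in every library (0 and 15 counts in all 44). Others were not: LYZ, CD14 and ITGAM had highest values over all libraries of 66.4, 12.2 and 4.26 CPM. The part of host cells in the result was not tested. In bulk RNA, fewer cells of a type and less RNA per cell cannot be told apart.

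Smaller and narrower departures were present in other groups, beside the 35 of 37 members with a mean of at least 1 CPM that were highest in the het2 tumour of replicate 4. In WT at day 30, replicate 0 was highest in 26 of 32 members, by a median of 0.20 on the log2 scale. In het1 at day 30, replicate 2 was highest in 28 of 35 (0.29), and in homo replicate 1 in 20 of 33 (0.18). Among WT DMSO tumours replicate 8 was highest in 22 of 32 (0.22), and among het1 SAHA tumours replicate 2 in 28 of 35 (0.31). Of all genes, 19.0 to 31.9% were highest in each of these tumours. The het1 DMSO tumour of replicate 5 was low instead, by a median of -0.44, and was lowest in 24 of 26 of the further interferon-induced genes as well. It was lowest in 21.4% of all genes. Its fibroblast markers summed to 133.1 CPM, within the range of 124.1 to 143.5 CPM of its group. Over all genes, the largest departure of a tumour's median from its group was 0.023, and TMM scaling holds these medians near 0. The plot of differences by tumour shows these shifts for every member.

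**Figure D2:**
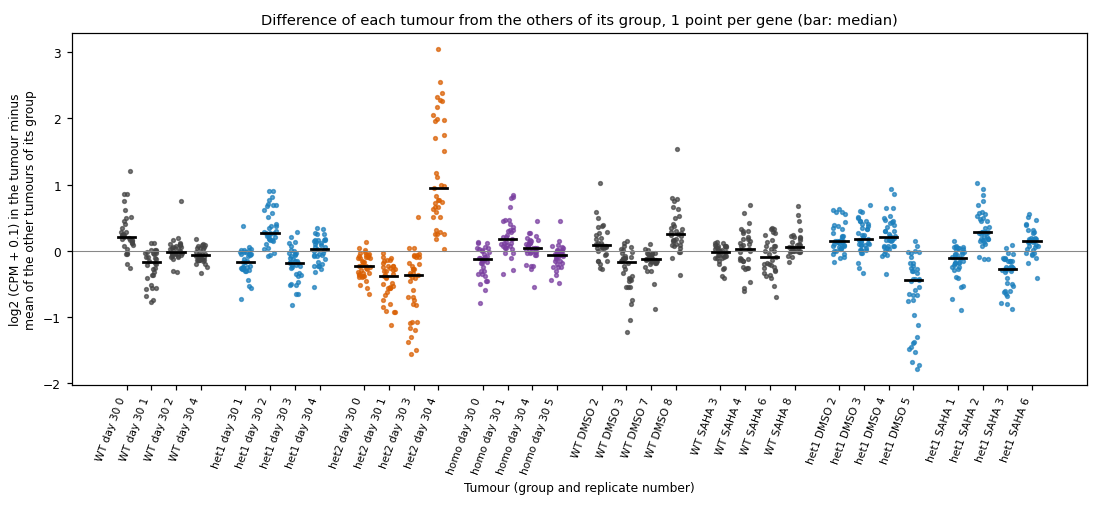
For each of the 32 tumours (horizontal axis, by group and replicate number), the difference in log2 (CPM + 0.1) from the mean of the other tumours of its group is plotted for each member with a group mean of at least 1 CPM; bars mark medians. Points for the het2 day 30 tumour of replicate 4 lie almost all above 0, and most points of the het1 DMSO tumour of replicate 5 lie below 0.

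The members did not spread evenly. Across the 8 tumour groups, and leaving out het2, the median ratio of the highest to the lowest tumour was 1.11 for STAT2, 1.15 for IFIT5, 1.17 for DTX3L and 1.20 for OAS3. These vary little between tumours. It was 1.96 for IFIT1, 1.96 for ISG15, 1.97 for IFI6, 2.01 for MX1 and 2.03 for IFI27, all with means of at least 1 CPM in every tumour group. IFI44 had 2.84, a median over the 3 groups where it reached 1 CPM. CMPK2 and IFI44L reached 1 CPM in 1 group outside het2, with single ratios of 4.13 and 3.18. Counting error is larger at such levels. Members encoded side by side did not always share this: on chromosome 12 OAS1 (1.25) and OAS3 (1.20) varied little and OAS2 (2.04, over 6 groups) varied more.

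In culture, some members rose and a few fell in every line against WT. Of 35 members tested, 19 rose and 7 fell in het1 (edgeR quasi-likelihood test, Benjamini-Hochberg adjusted p under 0.05), 22 rose and 8 fell in het2, and 17 rose and 8 fell in homo. Of all 21704 genes tested, 32.0% rose and 30.8% fell in het1, 35.1% and 33.3% in het2, and 35.4% and 35.1% in homo. With a change of at least 2-fold also required, the members' counts were 10 raised and 1 lowered (against 12.0% and 7.64% of genes) in het1, 16 raised and 2 lowered (against 15.5% and 8.14% of genes) in het2 and 8 raised and 5 lowered (against 16.6% and 10.0% of genes) in homo. By adjusted p alone, the members' share of rises was above that background in each line and their share of falls below it. The median member differed from WT by 0.34, 0.56 and 0.22 on the log2 scale, and the median gene by 0.03, 0.02 and 0.01. The 3 comparisons share the WT libraries. Because of that, a call in all 3 is not read as a result, and the members are only named. Called as rises in each line were the ISG15 ligase HERC5 and its relative HERC6, the complex partners PARP9 and DTX3L, SAMD9 and SAMD9L, IFI6, IFI35, IFIH1, ISG20, MX1, GBP1, CMPK2, RSAD2 and STAT2, and as falls OAS1, OAS3, IFITM2 and IFITM3. IFI27, IRF9 and ISG15 were called in none, and 5 that were near 0 (BST2, IFI44L, MX2, OAS2 and XAF1) were not tested. The remaining 13 were called in some of the lines. RSAD2 passed the expression filter only through its homo libraries, and IFI44, called as a rise in het2, only through its het2 libraries. RSAD2 was at 0.0374, 0 and 0.0280 CPM in het1 and 0.0717, 0.116 and 0.0560 in het2. GBP1 did not reach the filter without the libraries of the 3 lines. The rises of RSAD2, IFI44 and GBP1 are part of the counts above and are not read as support for them. Genes used as fibroblast markers, read here in cultures of a single cell line, summed to 9.86 to 10.9 CPM in WT cells and 51.3 to 74.2 CPM in the lines, and the A549 epithelial markers to at least 5519 CPM in WT and at most 2004 CPM in the lines. Their part in the result was not tested.

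Among the members that rose were the GTPase MX1 and the RNA sensor IFIH1. MX1 (MxA), a dynamin-like GTPase that blocks viral nucleocapsids, was at 0.258, 0.399 and 0.383 CPM in WT cells, 2.48, 2.26 and 2.05 in het1, 3.28, 2.56 and 2.97 in het2 and 1.66, 2.19 and 1.67 in homo. Every library of the 3 lines was above every WT library. The log2 fold changes against WT were 2.68 ± 0.20, 3.06 ± 0.19 and 2.38 ± 0.20 (SE), with edgeR adjusted p of 1.38e-13, 1.67e-15 and 3.67e-12. IFIH1 (MDA5), a sensor of long double-stranded RNA, was at 2.26, 2.25 and 2.62 CPM in WT, 7.42, 6.36 and 6.56 in het1, 6.65, 6.77 and 5.49 in het2 and 6.64, 7.11 and 7.41 in homo. It rose to a like level in all 3, by 1.51 ± 0.11, 1.40 ± 0.10 and 1.56 ± 0.11. The sensor DDX58 did not join it, with -0.31 ± 0.07 (lowered) in het1, -0.23 ± 0.07 (lowered) in het2 and 0.03 ± 0.07 (no call) in homo.

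SAMD9L, which restricts poxviruses, was at 1.32, 1.28 and 1.65 CPM in WT, 6.87, 7.58 and 6.92 in het1, 5.92, 6.02 and 5.87 in het2 and 1.68, 1.68 and 2.18 in homo. It rose by 2.32 ± 0.12 in het1 and 2.05 ± 0.12 in het2, and by 0.36 ± 0.14 in homo, whose libraries came close to WT. GBP2, a guanylate-binding protein, was at 0.580, 1.06 and 0.661 CPM in WT, 2.02, 1.93 and 1.79 in het1, 2.17, 2.54 and 2.36 in het2 and 0.436, 0.409 and 0.406 in homo. It rose in het1 (1.31 ± 0.19) and het2 (1.61 ± 0.18) and fell in homo (-0.88 ± 0.23). GBP3 was at 1.89, 2.64 and 2.15 CPM in WT, 2.42, 2.30 and 2.56 in het1, 2.69, 2.26 and 2.17 in het2 and 0.136, 0.146 and 0.0936 in homo. The 3 homo libraries stood far below the rest, a difference from WT of -4.13 ± 0.24 (edgeR adjusted p 1.92e-16), while het1 (0.12 ± 0.15) and het2 (0.09 ± 0.15) gave no call.

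The ISG15 pathway split in the same cells. HERC5, the main ligase of ISG15, was at 9.36, 10.1 and 9.84 CPM in WT, 21.9, 24.7 and 22.5 in het1, 20.0, 20.2 and 21.8 in het2 and 27.1, 25.3 and 27.2 in homo, rises of 1.23 ± 0.06, 1.08 ± 0.06 and 1.44 ± 0.06. ISG15 itself stayed near 1 CPM, at 0.967, 0.785 and 0.696 CPM in WT, 0.723, 0.462 and 0.672 in het1, 1.05, 1.02 and 1.21 in het2 and 0.709, 1.17 and 0.967 in homo, with no call in any line. USP18 was at 10.2, 10.4 and 10.4 CPM in WT, 9.78, 10.2 and 9.497 in het1, 6.88, 6.52 and 6.43 in het2 and 10.2, 10.5 and 9.63 in homo. It fell in het2 (-0.64 ± 0.07), without a call in het1 or homo. USP18 has near-identical copies in the genome, and its reads may be split. ISG20, an exonuclease, was at 7.43, 6.72 and 6.75 CPM in WT, 15.1, 15.0 and 15.6 in het1, 9.93, 10.4 and 9.05 in het2 and 15.2, 13.4 and 15.0 in homo, rises of 1.13 ± 0.07, 0.49 ± 0.07 and 1.07 ± 0.07.

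IFI6 was at 3.29, 2.47 and 1.72 CPM in WT, 6.48, 5.90 and 6.25 in het1, 9.76, 9.79 and 10.0 in het2 and 11.3, 12.0 and 10.1 in homo. The lines lay apart from WT without overlap, by 1.35 ± 0.13, 2.02 ± 0.13 and 2.19 ± 0.13. IFIT1 was at 3.46, 5.05 and 4.34 CPM in WT, 4.39, 4.28 and 4.43 in het1, 15.7, 16.5 and 15.7 in het2 and 7.32, 6.86 and 7.79 in homo. It rose in het2 (1.89 ± 0.09) and homo (0.76 ± 0.09) but gave 0.02 ± 0.10 and no call in het1. Its neighbour IFIT3 was at 3.74, 4.16 and 3.34 CPM in WT, 2.92, 3.11 and 2.51 in het1, 7.30, 7.52 and 7.72 in het2 and 2.13, 2.80 and 2.67 in homo, lower than WT in het1 (-0.39 ± 0.12) and homo (-0.56 ± 0.12) and higher in het2 (1.01 ± 0.10). CMPK2, a mitochondrial nucleotide kinase, was at 0.258, 0.179 and 0.220 CPM in WT, 0.436, 0.530 and 0.266 in het1, 0.967, 0.969 and 1.04 in het2 and 1.12, 1.65 and 1.87 in homo, and rose by 0.92 ± 0.32, 2.18 ± 0.28 and 2.81 ± 0.28. RSAD2, encoded beside CMPK2 on chromosome 2, was at 0 in all WT libraries and at 0.327, 0.307 and 0.2496 CPM in homo.

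The deepest fall was in OAS1. It was at 60.9, 68.1 and 67.7 CPM in WT cells, 6.02, 5.25 and 5.31 in het1, 2.69, 2.27 and 2.41 in het2 and 1.34, 1.39 and 1.12 in homo. The 4 lines did not overlap, and the log2 fold changes were -3.57 ± 0.06, -4.74 ± 0.07 and -5.67 ± 0.08 with edgeR adjusted p of 6.77e-30, 3.24e-32 and 5.01e-33. OAS3, encoded next to it, was at 152, 151 and 149.9 CPM in WT, 101, 98.1 and 97.5 in het1, 64.6, 63.8 and 64.96 in het2 and 79.3, 82.2 and 79.7 in homo, and fell less far (-0.61 ± 0.03, -1.23 ± 0.03 and -0.91 ± 0.03). Of the IFITM genes, whose proteins stop viral fusion at membranes, IFITM2 and IFITM3 fell in all 3 lines and IFITM1 in het2 and homo. IFITM2 was at 18.0, 17.1 and 17.1 CPM in WT, 10.5, 10.8 and 11.4 in het1, 11.4, 11.5 and 9.96 in het2 and 4.67, 5.05 and 4.32 in homo, with differences of -0.68 ± 0.07, -0.67 ± 0.07 and -1.89 ± 0.07. IFITM3 was at 3.96, 3.64 and 3.47 CPM in WT, 2.23, 2.16 and 2.73 in het1, 2.33, 2.41 and 1.85 in het2 and 0.818, 0.905 and 1.08 in homo, with -0.63 ± 0.13, -0.75 ± 0.13 and -1.98 ± 0.15. The IFITM genes are near-identical neighbours on chromosome 11, and reads may be split between them.

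The factors of the pathway moved little beside these. IRF1 was at 9.83, 10.6 and 10.1 CPM in WT, 8.09, 7.81 and 8.00 in het1, 11.5, 10.4 and 10.2 in het2 and 11.5, 12.5 and 11.0 in homo, lower than WT in het1 (-0.35 ± 0.07) and higher in homo (0.20 ± 0.07). IRF7 was at 1.43, 1.43 and 1.31 CPM in WT, 1.26, 0.992 and 1.29 in het1, 1.07, 1.01 and 1.04 in het2 and 1.05, 1.36 and 1.01 in homo, with a fall in het2 (-0.42 ± 0.18) whose call was lost on leaving out any 1 of 5 libraries (-0.43 to -0.39). STAT2 rose by 0.59 ± 0.05, 0.22 ± 0.05 and 0.66 ± 0.05, and IRF9 gave no call in any line.

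At day 30, the het1 and het2 tumours carried higher levels of many members than the WT tumours, while in the homo tumours more members fell than rose. All 40 members were tested. In het1, 20 rose and 3 fell; in het2, 24 rose and 3 fell; in homo, 8 rose and 15 fell. Of all 22533 genes tested, 26.8% rose and 24.8% fell in het1, 24.4% and 24.8% in het2, and 27.1% and 27.7% in homo. At 2-fold or more, the members' counts were 15 raised and 2 lowered (against 10.5% and 7.95% of genes) in het1, 18 raised and 0 lowered (against 8.17% and 5.89% of genes) in het2 and 3 raised and 7 lowered (against 10.4% and 9.62% of genes) in homo. Without the het2 tumour of replicate 4, 22 members rose and 6 fell in het2, against 22.0% and 22.2% of 23084 genes. IFI35 and OASL then lost their call, and DDX58, IFIT2 and SAMD9L gained one as falls. The homo count of rises was 15 when only the homo and WT tumours were fitted. It was 5 without the WT tumour of replicate 1 and, likewise, without the homo tumour of replicate 1. Shares of all genes in these runs of homo are not given. The median member differed from WT by 0.83 in het1, 0.77 in het2 (0.47 without replicate 4) and -0.18 in homo. Without replicate 4, 16 members rose and 0 fell at 2-fold or more in het2, against 7.74% and 5.65% of genes. HERC5, IFI27, IFI6, IFITM1, IFITM2, ISG20 and USP18 were called as rises in each line and GBP3 as a fall. BST2, IFI44, IFIT1, IFITM3, IRF7, ISG15, MX1, OAS2 and XAF1 were called as rises in het1 and het2 without a call in homo. The het2 calls of all these held without replicate 4. Called as falls in homo, without a call in either other line, were the sensors DDX58 and IFIH1 and GBP1, GBP2, IFIT3, IFIT5, OAS3 and DTX3L. Differences between the lines were not tested. These comparisons again share their WT tumours, so the overlap of calls is not read as a result. MX2, IFI44L, RSAD2 and XAF1 did not reach the expression filter without the het1 and het2 tumours. Their rises are part of the counts above and are not read as support for them.

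IFI27 was at 2.59, 2.37, 4.32 and 2.59 CPM in the WT tumours, 21.6, 35.4, 17.5 and 26.8 in het1 and 7.29, 14.7, 9.39 and 8.07 in homo, beside the het2 values given above. All tumours of the 3 lines were above all WT tumours. The rises were 3.09 ± 0.63 in het1, 3.80 ± 0.65 in het2 and 1.73 ± 0.63 in homo, with edgeR adjusted p of 0.00116, 2.90e-04 and 0.0332; without replicate 4 the het2 value was 2.68. The homo call was lost on leaving out any 1 of 5 tumours (1.48 to 1.76). IFI6 was at 25.5, 13.7, 19.2 and 17.4 CPM in WT, 99.0, 209, 93.2 and 149.9 in het1 and 55.1, 67.6, 59.0 and 51.1 in homo, again with no overlap with WT. Its rises were 2.86 ± 0.49, 3.37 ± 0.50 (2.58 without replicate 4) and 1.62 ± 0.47. IFITM1 was at 2.61, 1.40, 2.18 and 2.16 CPM in WT, 9.65, 18.5, 10.6 and 14.8 in het1, 14.5, 12.5, 10.6 and 35.7 in het2 and 3.77, 5.34, 4.88 and 4.55 in homo, and rose by 2.68 ± 0.39, 3.13 ± 0.39 (2.59 without replicate 4) and 1.15 ± 0.39, a homo call lost without replicate 1 of WT or of homo (1.00 to 1.08). IFITM2 was at 57.8, 37.2, 44.1 and 42.5 CPM in WT, 92.1, 105, 76.1 and 94.2 in het1, 119, 113, 118 and 139 in het2 and 71.7, 79.5, 81.3 and 78.4 in homo. It rose in all 3 (1.02 ± 0.12, 1.43 ± 0.12 and 0.77 ± 0.12, with 1.36 for het2 without replicate 4), where the cultured lines had been below WT.

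BST2 was at 0.542, 0.224, 0.186 and 0.139 CPM in WT, 0.831, 1.97, 1.10 and 1.39 in het1 and 0.587, 0.783, 0.689 and 0.483 in homo. It rose in het1 (2.29 ± 0.62) and het2 (3.45 ± 0.61, 2.55 without replicate 4), and the homo value of 1.23 ± 0.65 gave no call. IFIT1 was at 9.81, 4.22, 6.57 and 5.64 CPM in WT, 18.3, 28.1, 16.0 and 23.0 in het1 and 11.7, 12.6, 12.8 and 10.5 in homo. The het1 and homo tumours lay above WT without overlap, and the test called het1 (1.70 ± 0.52) and het2 (2.64 ± 0.53, 1.68 without replicate 4) but not homo (0.86 ± 0.52). ISG15 was at 3.30, 1.25, 1.44 and 1.42 CPM in WT, where replicate 0 was more than 2-fold above the others, 4.75, 8.40, 3.64 and 6.74 in het1 and 4.28, 5.09, 5.22 and 3.73 in homo. It rose in het1 (1.67 ± 0.58) and het2 (3.36 ± 0.59, 2.39 without replicate 4). IFI44 was at 0.433, 0.124, 0.569 and 0.320 CPM in WT, 1.18, 2.46, 1.36 and 1.29 in het1, 2.80, 2.11, 2.34 and 10.3 in het2 and 0.222, 0.280, 0.140 and 0.152 in homo, with rises in het1 (2.11 ± 0.57) and het2 (3.58 ± 0.56, 2.73 without replicate 4). IFI44L, beside IFI44 on chromosome 1, was at 0.470, 0.161, 0.0116 and 0.0747 CPM in WT, 0.598, 1.501, 0.220 and 1.13 in het1 and 0.0476, 0.168, 0.117 and 0.0276 in homo, and rose in het2 (3.99 ± 1.01, 2.45 without replicate 4).

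HERC5 was at 5.50, 5.40, 5.19 and 5.58 CPM in WT, 10.2, 10.3, 9.57 and 10.3 in het1, 8.11, 8.14, 7.58 and 14.2 in het2 and 8.66, 6.92, 8.88 and 7.88 in homo, above WT in every tumour, and rose by 0.90 ± 0.15, 0.81 ± 0.15 (0.55 without replicate 4) and 0.58 ± 0.15. IRF9, the DNA-binding part of ISGF3, was at 0.987, 0.683, 0.917 and 0.513 CPM in WT, 2.00, 2.34, 1.23 and 1.20 in het1, 0.992, 0.659, 0.808 and 1.36 in het2 and 1.09, 1.68, 1.51 and 1.01 in homo. It rose in het1 (1.12 ± 0.27) and homo (0.77 ± 0.27), where the call was lost on leaving out any 1 of 4 tumours (0.61 to 0.72), and het2 overlapped WT (0.30 ± 0.28, no call, 0.08 without replicate 4).

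Among the members that fell in tumours were OAS1, the GBP family and, in homo, IFIT2 and IFIT3. OAS1 was at 132, 161, 156 and 158 CPM in WT, 49.5, 61.7, 55.3 and 61.8 in het1, 153, 154, 184 and 246 in het2 and 46.5, 50.8, 53.7 and 46.3 in homo. The het1 and homo tumours were all below WT, with log2 fold changes of -1.41 ± 0.13 and -1.62 ± 0.13 (edgeR adjusted p 1.36e-07 and 2.31e-08), while het2 tumours overlapped them (0.28 ± 0.13, no call, 0.11 without replicate 4). GBP3 was at 48.4, 40.9, 42.8 and 41.8 CPM in WT, 18.1, 23.6, 24.5 and 19.1 in het1, 28.4, 26.2, 28.0 and 32.9 in het2 and 5.72, 9.504, 6.00 and 6.21 in homo. It fell in all 3 lines (-1.03 ± 0.13, -0.59 ± 0.13 and -2.66 ± 0.15, with -0.66 for het2 without replicate 4), and the homo tumours were the lowest. GBP1 was at 8.60, 6.99, 5.91 and 6.46 CPM in WT, 5.00, 6.85, 6.08 and 5.04 in het1 and 1.46, 1.34, 1.00 and 1.75 in homo, and fell in homo (-2.34 ± 0.20). GBP2 was at 33.1, 24.5, 29.1 and 29.3 CPM in WT, 30.3, 31.2, 30.7 and 26.1 in het1 and 6.80, 14.1, 8.03 and 9.69 in homo, and fell in homo (-1.59 ± 0.16). All homo tumours lay below all other tumours in these 3 genes, neighbours on chromosome 1.

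IFIT2 was at 11.1, 9.08, 10.8 and 10.9 CPM in WT, 6.05, 7.56, 5.79 and 7.21 in het1, 5.90, 6.26, 5.69 and 13.1 in het2 and 2.52, 4.10, 3.23 and 3.22 in homo. It fell in het1 (-0.65 ± 0.22, with no call without replicate 1 or 3 of het1) and homo (-1.68 ± 0.23), and het2 gave -0.44 ± 0.22 and no call, and without replicate 4 it fell (-0.81). IFIT3 was at 12.0, 9.15, 11.5 and 9.79 CPM in WT, 8.24, 12.4, 8.48 and 9.37 in het1, 8.66, 8.46, 7.87 and 28.3 in het2 and 2.54, 3.94, 3.56 and 3.13 in homo, and fell in homo (-1.68 ± 0.38). IFIT1, in the same cluster on chromosome 10, lay above WT in those homo tumours. IRF1 was at 18.0, 14.4, 15.1 and 16.2 CPM in WT, 15.5, 14.7, 17.0 and 13.9 in het1, 11.6, 11.2, 12.4 and 13.3 in het2 and 15.2, 14.1, 15.3 and 15.3 in homo, and fell in het2 (-0.40 ± 0.08, -0.44 without replicate 4). Fibroblast markers summed to 224.3 to 369.8 CPM in the WT tumours, 117.3 to 299.7 in het1 and 325.8 to 501.3 in homo, and myeloid markers to 32.8 to 46.1 CPM in WT, 13.5 to 16.6 in het1 and 17.4 to 20.7 in homo. Lymphoid and NK markers stayed under 1 CPM in sum in every tumour. The part of these in the members' differences was not tested.

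The plot of levels by group shows 9 of these members in all libraries, and the plot of culture against tumour sets both differences from WT side by side.

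**Figure D3:**
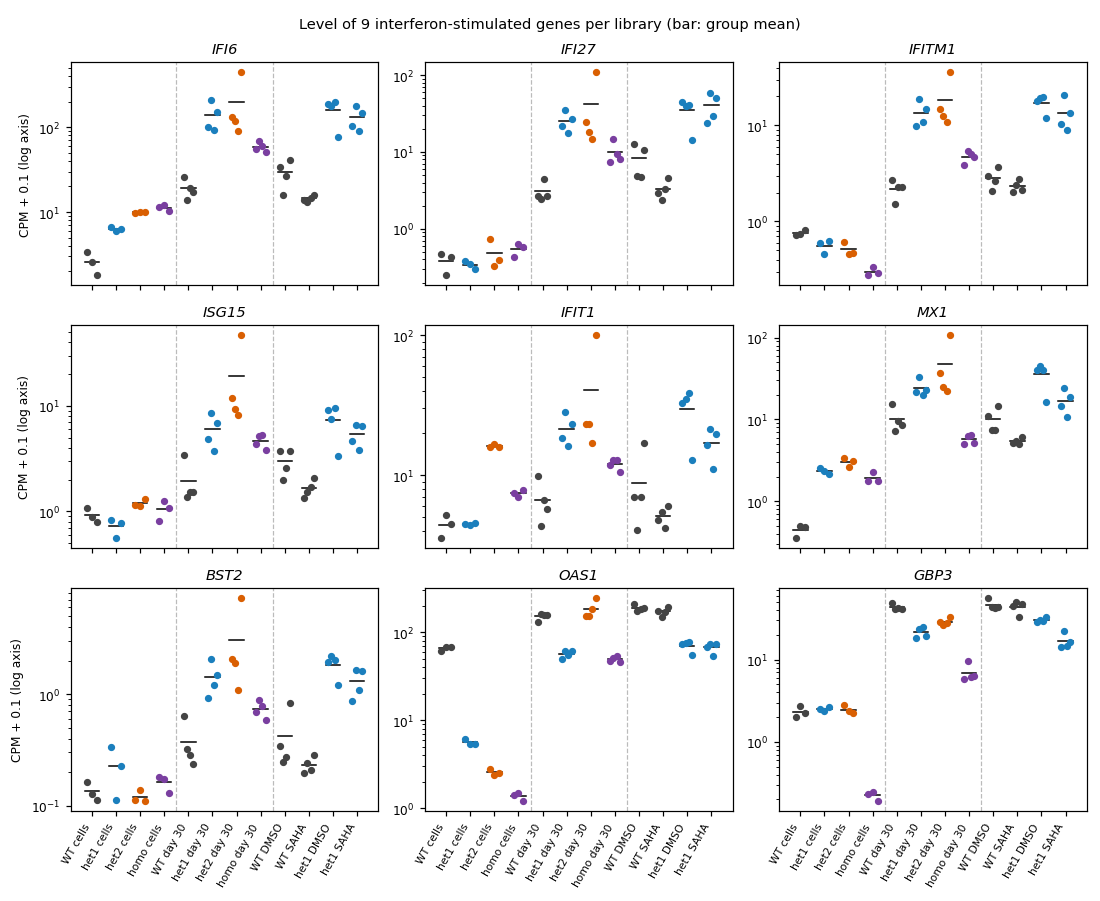
Level of 9 members in every library, as CPM plus 0.1 on a log axis, by group; each point is 1 library, bars are group means, and dashed lines divide cells, day 30 tumours and treated tumours. OAS1 is lower than WT in every het1 and homo group, IFI6, IFI27 and IFITM1 are higher than WT in the het1 tumours of both tumour sets, and 1 het2 tumour stands above all other libraries in 8 of the 9 panels (not GBP3).

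**Figure D4:**
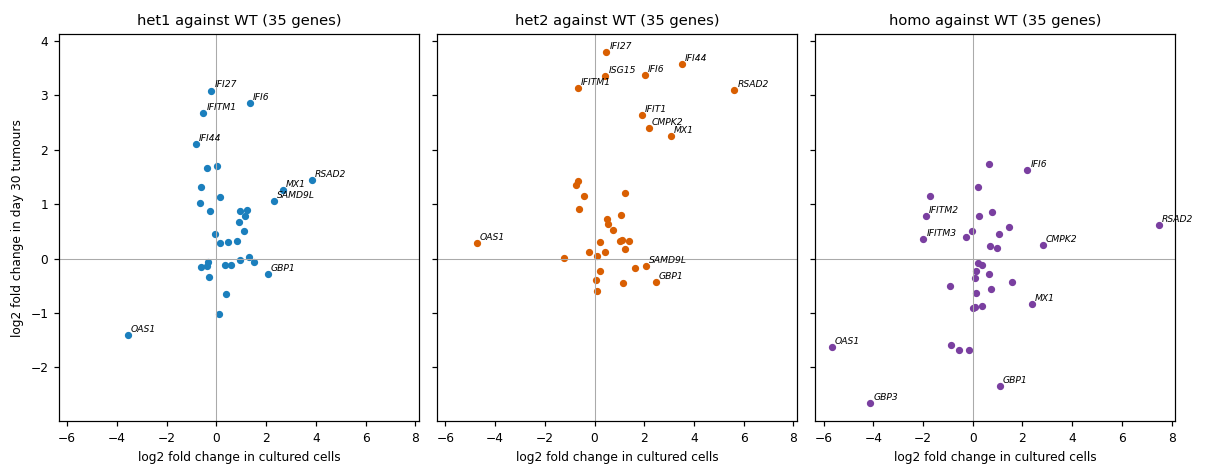
Log2 fold change against WT of each member tested in both settings, in cultured cells (horizontal) and in day 30 tumours (vertical), for het1, het2 and homo; members with a change of at least 1.8 in either setting are named. IFI27 and IFITM1 lie high in tumours but near or below 0 in culture, and OAS1 lies far to the left in all 3 panels.

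The het1 line was compared with WT in a further, separate set of tumours, those given DMSO for 4 weeks. There 28 members rose and 3 fell, against 27.3% and 26.8% of all 22586 genes, and at 2-fold or more 18 raised and 1 lowered (against 11.1% and 9.38% of genes). All 20 members that rose at day 30 rose here too, which is 71.4% of the 28. Of all genes that rose at day 30, 77.8% rose here, which is 76.2% of those that rose here. Of the 3 members that fell at day 30, 2 fell here (OAS1 and GBP3), against 74.5% of all genes that fell. The 2 sets share no library, and no member was called in opposite directions. Without the tumour of replicate 5, 30 members rose and 3 fell, and the shares of all genes in that run are not given. MX2 was at 0.205, 0.0589, 0.0732 and 0.293 CPM in WT DMSO tumours and 2.25, 1.67, 1.99 and 0.946 in het1 DMSO tumours. OAS2 was at 1.28, 0.943, 1.01 and 1.71 CPM in WT and 8.94, 10.1, 9.89 and 4.40 in het1. In both, each het1 tumour was above each WT tumour, with log2 fold changes of 3.47 ± 0.47 and 2.76 ± 0.32 and edgeR adjusted p of 7.24e-06 and 2.70e-06. MX2, like IFI44L, RSAD2 and XAF1, did not reach the expression filter without the het1 tumours. Rises of these members are part of the counts above and are not read as support for them. IFITM1 was at 2.84, 1.99, 2.51 and 3.54 CPM in WT and 17.8, 19.0, 19.6 and 11.7 in het1 (2.65 ± 0.26). BST2 was at 0.246, 0.147, 0.171 and 0.732 CPM in WT and 1.83, 2.08, 1.92 and 1.11 in het1 (2.45 ± 0.39). IFI6 was at 33.9, 16.0, 26.1 and 40.8 CPM in WT and 187, 178, 196 and 75.9 in het1 (2.45 ± 0.35), and IFI27 at 12.7, 4.82, 4.63 and 10.4 CPM in WT and 44.0, 39.3, 41.0 and 14.3 in het1 (2.09 ± 0.45). None of these 4 overlapped between the lines, although replicate 5 was the lowest het1 tumour in each.

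OAS1 was at 208, 175, 185 and 187 CPM in WT DMSO tumours and 73.6, 75.0, 76.6 and 55.6 in het1 DMSO tumours, a log2 fold change of -1.43 ± 0.11. GBP3 was at 56.4, 43.6, 42.8 and 43.6 CPM in WT and 28.6, 30.4, 29.2 and 32.6 in het1 (-0.63 ± 0.15), and IRF1 at 24.4, 18.7, 18.3 and 20.0 CPM in WT and 16.0, 15.3, 15.0 and 16.2 in het1 (-0.38 ± 0.10). The het1 tumours lay below WT in all 3. Fibroblast markers summed to 254.1 to 367.9 CPM in WT DMSO tumours and 124.1 to 143.5 in het1 DMSO tumours, and their part in these differences was not tested. Promoters with the ISRE letters were compared with the others as a description: of the 20 such members 14 rose in this comparison, with a median log2 fold change of 1.32, and of the 12 whose window lacks them 9 rose, with a median of 0.53. At day 30 the medians in het1 were 1.08 and 0.31. With and without the letters, the medians at day 30 were 1.08 and 0.32 in het2 and -0.02 and -0.11 in homo. Those of het2 include the tumour of replicate 4 and are not given without it. Over all members the het2 median was 0.77 with that tumour and 0.47 without it. In cultured cells they were 0.13 and 0.59 in het1, 0.75 and 0.56 in het2, and 0.45 and 0.36 in homo, so the order was reversed in het1 cells.

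SAHA for 4 weeks gave no member call in WT tumours, where edgeR called 0 of all 22586 genes (13 members had an unadjusted p under 0.05), and DESeq2 called 1 member lowered. The median member was at -0.29 against DMSO. In het1 tumours 1 member rose and 11 fell, against 7.68% and 9.15% of all genes, with a median of -0.34, and at 2-fold or more 0 raised and 1 lowered (against 1.93% and 0.576% of genes). STAT2 rose, and MX1, GBP1, GBP3, HERC6, IFIT2, IFIT3, IFIT5, OAS3, DTX3L, SAMD9L and the sensor DDX58 fell. There were 4 falls without the DMSO tumour of replicate 3 or the SAHA tumour of replicate 1 or 3, 7 without the DMSO tumour of replicate 2 or 4 or the SAHA tumour of replicate 6, and 15 falls and no rise without the low DMSO tumour of replicate 5. Fibroblast markers summed to 124.1 to 143.5 CPM in the het1 DMSO tumours and 173.1 to 252.2 in the het1 SAHA tumours, without overlap, and their part in the result was not tested. The SAHA comparison in het1 and the comparison of het1 with WT under DMSO share the het1 DMSO tumours. The difference between the SAHA effects of the lines was called in 0 of 40 members by edgeR (6 with an unadjusted p under 0.05), against 2.01% above and 2.71% below 0 over all genes, and in 3 members below 0 by DESeq2. Leaving out single tumours gave 0 to 1 members above and 0 to 2 below. Shares of all genes are not given for unadjusted p, for DESeq2 or for the SAHA runs without single tumours. The counts of members under these 3 are therefore not read as a result about the members.

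GBP3 was at 28.6, 30.4, 29.2 and 32.6 CPM in het1 DMSO tumours and 14.3, 22.2, 14.4 and 16.2 in het1 SAHA tumours. HERC6, a relative of HERC5, was at 23.7, 26.4, 23.8 and 18.4 CPM under DMSO and 12.9, 14.7, 11.2 and 14.1 under SAHA. IFIT2 was at 10.1, 10.2, 10.2 and 8.66 CPM under DMSO and 5.71, 6.93, 5.11 and 6.53 under SAHA. In these 3 every SAHA tumour was below every DMSO tumour, with log2 fold changes of -0.85 ± 0.15, -0.80 ± 0.12 and -0.69 ± 0.12 and edgeR adjusted p of 0.00169, 1.80e-04 and 9.49e-04. In WT the same genes gave -0.10 ± 0.15, -0.23 ± 0.12 and -0.50 ± 0.12. STAT2 was the member that rose, from 69.3, 69.7, 71.7 and 65.8 to 75.1, 83.5, 80.6 and 77.3 CPM (0.19 ± 0.06, adjusted p 0.0210); the call was lost on leaving out any 1 of 4 tumours (0.16 to 0.19). MX1 had the largest fall called (-1.07 ± 0.33), at 40.2, 45.2, 40.4 and 16.1 CPM under DMSO and 14.4, 24.0, 10.6 and 18.6 under SAHA, which overlap through replicate 5. IFI6 was at 102, 179, 90.8 and 148 CPM and IFI27 at 23.8, 59.1, 29.1 and 50.6 CPM in het1 SAHA tumours, with no call against DMSO (-0.29 ± 0.33 and 0.23 ± 0.42). Of the members named above as higher in het1 under DMSO, MX2, OAS2, IFITM1 and BST2 gave -1.13 ± 0.39, -0.54 ± 0.29, -0.36 ± 0.24 and -0.53 ± 0.35, also with no call. Of the further interferon-induced genes, 14 of 27 tested fell and none rose in het1.

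The plot of SAHA effects gives every member in both lines.

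**Figure D5:**
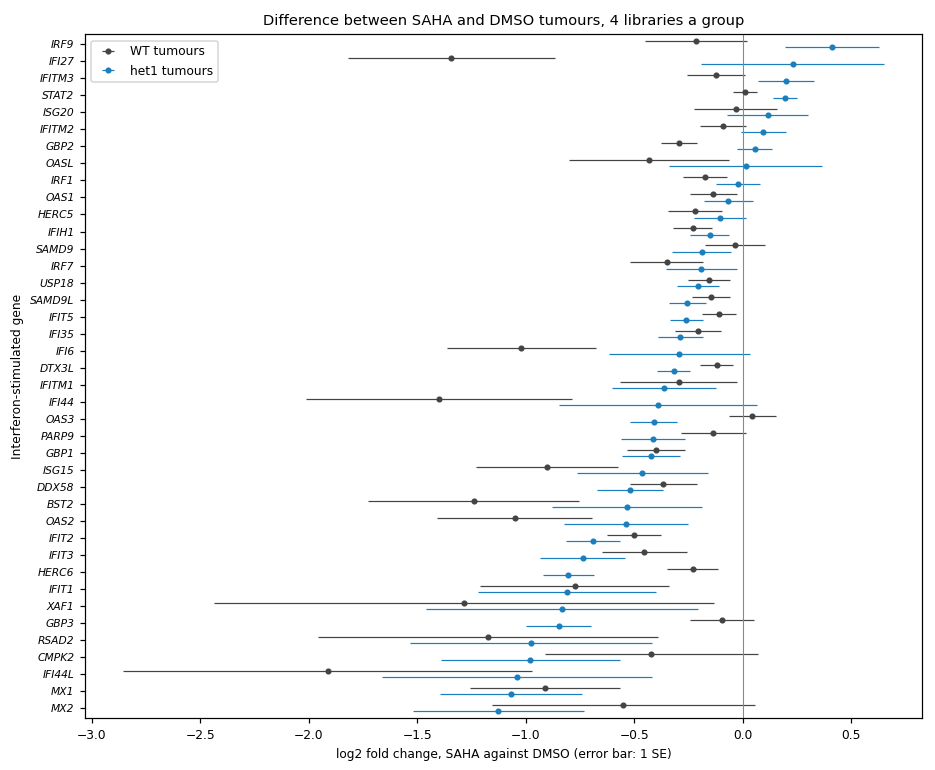
Log2 fold change of SAHA against DMSO for each of the 40 members (rows, ordered by the het1 value) in WT and het1 tumours, with error bars of 1 SE and 4 libraries a group. Most points of both lines lie to the left of 0, with wide bars for members at low levels such as IFI44L and XAF1.

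Tumours were higher than the cells of the same line in most members. In one fit over both tables, 31 members rose and 1 fell in WT, 37 and 1 in het1, 37 and 1 in het2 (36 and 2 without replicate 4, against 35.0% and 29.6% of genes) and 28 and 3 in homo. Over all 24227 genes the shares were 35.0% and 32.1% in WT, 36.8% and 28.4% in het1, 35.6% and 30.6% in het2, and 34.8% and 29.3% in homo. At 2-fold or more, the members' counts were 30 raised and 0 lowered (against 19.1% and 10.8% of genes) in WT, 35 raised and 1 lowered (against 19.5% and 7.92% of genes) in het1, 31 raised and 0 lowered (against 18.6% and 11.5% of genes) in het2 and 21 raised and 1 lowered (against 17.9% and 10.4% of genes) in homo. Cells and tumours were deposited as separate tables, so growth as a tumour cannot be told apart from a batch of the tables, and host cells are present only in tumours. BST2, IFI44L, MX2, OAS2 and XAF1 did not pass the expression filter in the cells and entered this fit only through tumour libraries. Their rises are part of the counts and medians given here and are not read as support for them. Without replicate 4, 29 members rose and 1 fell at 2-fold or more in het2, against 18.3% and 11.1% of genes. The median member was 1.73, 2.44, 2.72 (2.14 without replicate 4) and 1.75 higher on the log2 scale, and these medians do not change when members at 0 counts in the cells are set to a bound of 3 counts over the group.

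In WT, GBP1 and GBP2 had the largest rises among members with a mean of at least 1 CPM. GBP1 was at 0.0967, 0.234 and 0.0812 CPM in WT cells, far under the WT tumours, a difference of 5.71 ± 0.32, and GBP2 and GBP3 differed by 5.28 ± 0.22 and 4.33 ± 0.16. MX1 reached 15.2, 7.22, 9.45 and 8.54 CPM in WT tumours, 21.8, 32.9, 19.7 and 22.9 in het1, 37.4, 24.8, 22.1 and 108 in het2 and 4.91, 6.26, 6.29 and 5.02 in homo, and rose by 4.88 ± 0.62 in WT. OAS2 was at 0.113, 0.0551 and 0.0812 CPM in WT cells and 2.60, 1.12, 1.82 and 1.64 in WT tumours (4.48 ± 0.89), and at 0.0717, 0.0387 and 0.0560 CPM in het2 cells (8.36 ± 0.84 to the het2 tumours, 7.36 without replicate 4). Since OAS2 passed the filter only through tumours, its rise is given as a value and not as support. IFI27 was at 0.371, 0.152 and 0.325 CPM in WT cells, 0.287, 0.245 and 0.196 in het1, 0.645, 0.232 and 0.291 in het2 and 0.327, 0.540 and 0.484 in homo. It rose in every line, by 3.44 ± 0.88, 6.80 ± 0.81, 6.85 ± 0.75 (5.73 without replicate 4) and 4.58 ± 0.76. IFITM1 was at 0.498, 0.353 and 0.518 CPM in het1 cells, 0.514, 0.362 and 0.370 in het2 and 0.177, 0.234 and 0.187 in homo, and rose by 4.98 ± 0.43, 5.59 ± 0.43 (5.05 without replicate 4) and 4.66 ± 0.50.

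IFI44 was at 0.0125, 0.0544 and 0 CPM in het1 cells and rose by 6.16 ± 0.87, a fold that rests on a few reads in those cells. BST2 was at 0.0119, 0.0387 and 0.0112 CPM and IFI44L at 0.0717, 0.0646 and 0.0448 CPM in het2 cells. They rose by 7.23 ± 0.88 and 5.65 ± 1.20 (6.33 and 4.12 without replicate 4), folds that rest on a few reads in the cells. MX2 had 3 counts over the 3 het2 cell libraries (0, 0.0129 and 0.0224 CPM), and no fold is given for it. OAS1 rose by 6.36 ± 0.17 in het2 (6.19 without replicate 4) and 5.38 ± 0.18 in homo, from the low levels of those cells. HERC5 went the other way in all 4 lines, falling to log2 differences of -0.81 ± 0.13, -1.08 ± 0.13, -0.996 ± 0.13 (-1.25 without replicate 4) and -1.59 ± 0.13. In homo, IFIT5 also fell (-0.44 ± 0.12), from 33.6, 32.8 and 35.0 CPM in cells to 23.4, 23.8, 22.6 and 21.9 in tumours, as did CMPK2 (-0.98 ± 0.40, with no call on leaving out any 1 of 4 libraries), which was at 0.523, 0.811, 1.04 and 0.455 CPM in the homo tumours.

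The difference between culture and tumour was itself compared between each line and WT as an interaction. The difference from WT in culture enters this term with a minus sign. A fall in culture by itself therefore moves a member above 0, and a rise moves it below. In het1, 10 members lay above 0 and 10 below, against 24.2% and 15.0% of all genes; in het2, 9 and 10, against 27.2% and 20.4%; in homo, 8 and 13, against 28.7% and 20.4%. At 2-fold or more, the members' counts were 7 above 0 and 5 below 0 (against 7.37% and 5.97% of genes) in het1, 8 above 0 and 4 below 0 (against 8.35% and 9.44% of genes) in het2 and 5 above 0 and 8 below 0 (against 9.55% and 10.4% of genes) in homo. The median gene stood at 0.10, 0.07 and 0.10 in these terms. Without the het2 tumour of replicate 4 the het2 counts were 11 and 16, against 26.6% and 20.0% of genes, and at 2-fold or more 11 and 8, against 8.16% and 9.42%. The median member in het2 was at 0.15, and at -0.28 without replicate 4, so 1 tumour turned its sign. In het2 without replicate 4, the values named here were 4.93 for OAS1, 3.34 for IFITM1, 2.11 for IFITM2, 1.96 for IFITM3 and 2.04 for ISG15, -2.88 for GBP1, -1.71 for GBP2, -1.21 for IFIH1, -2.28 for SAMD9L and -1.86 for IFIT2, each still called on the same side of 0. With all tumours, above 0 were OAS1 (2.23 ± 0.18, 5.10 ± 0.20 and 4.13 ± 0.21 in het1, het2 and homo), IFITM1 (3.28 ± 0.62, 3.88 ± 0.63 and 2.95 ± 0.71), IFITM2 (1.76 ± 0.16, 2.18 ± 0.16 and 2.75 ± 0.17) and IFITM3 (2.03 ± 0.28, 2.19 ± 0.28 and 2.43 ± 0.31). None of these 4 was raised against WT in a cultured line. IFITM3 was at 14.9, 8.73, 11.0 and 12.0 CPM in WT tumours, 28.3, 35.3, 24.4 and 29.1 in het1, 26.6, 25.4, 24.6 and 43.3 in het2 and 13.6, 15.3, 16.0 and 15.1 in homo. ISG15 was above 0 in het2 (3.00 ± 0.83).

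Members that the cultured lines carried above WT were among those below 0, which the term itself favours. GBP1 was at 0.548, 0.625 and 0.560 CPM in het1 cells, 1.11, 0.568 and 0.605 in het2 and 0.354, 0.219 and 0.296 in homo, with interactions of -2.28 ± 0.45, -2.81 ± 0.43 and -3.34 ± 0.50. GBP2 had -1.22 ± 0.29 in het1 and -1.70 ± 0.28 in het2. IFIH1 was at 21.8, 18.6, 19.5 and 19.3 CPM in WT tumours, 18.1, 21.6, 17.4 and 18.4 in het1, 22.5, 19.7, 21.6 and 36.2 in het2 and 13.6, 17.1, 12.9 and 15.0 in homo, with -1.51 ± 0.22, -0.98 ± 0.22 and -1.92 ± 0.22. In culture IFIH1 rose in all 3 lines, and at day 30 it rose in none. SAMD9L was at 13.3, 11.5, 11.6 and 11.0 CPM in WT tumours, 22.6, 28.1, 24.5 and 23.0 in het1, 9.74, 8.75, 10.1 and 14.8 in het2 and 5.91, 7.31, 6.26 and 6.43 in homo, with -1.20 ± 0.19, -2.10 ± 0.19 and -1.16 ± 0.21. IFIT2 was at 2.42, 2.13 and 2.66 CPM in WT cells and 5.08, 5.71 and 5.12 in het2 cells, with -1.49 ± 0.30 in het2. In homo, MX1 (-3.14 ± 0.84) and CMPK2 (-2.47 ± 0.64) were also below 0.

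Upstream of the members, the interferons themselves were almost silent. IFNG had 0 counts in all 44 libraries, IFNB1 6 and IFNA2 1, and IFNA1 had 262 in all. IFNE, an epithelial type I interferon, was the most abundant of the 10 listed, with a highest value of 2.71 CPM, and was raised against WT in the 3 cultured lines (0.82 ± 0.25, 1.31 ± 0.24 and 0.84 ± 0.25). In day 30 tumours it was raised in het2 (0.66 ± 0.26, 0.74 without replicate 4, adjusted p 0.0364) and homo (1.21 ± 0.26) and not called in het1 (0.51 ± 0.26), nor in het1 under DMSO (-0.21 ± 0.25). Interferons of the mouse host were not analysed here. Of the receptors and kinases in day 30 tumours, IFNGR2 rose in all 3 lines (1.10 ± 0.05, 0.63 ± 0.05 and 0.77 ± 0.05), IFNGR1, the ligand-binding chain, fell in het1 (-1.02 ± 0.09) and homo (-0.74 ± 0.09), and JAK1 fell in all 3 (-0.54 ± 0.06, -0.53 ± 0.06 and -0.24 ± 0.06). Without replicate 4 the het2 values were 0.60 for IFNGR2 and -0.47 for JAK1.

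Of 10 nucleic acid sensors, adaptors and IRF3 tested in day 30 tumours, 3 rose and 2 fell in het1, 3 and 2 in het2, and 3 and 3 in homo, shares near those of all genes given above. DHX58 (LGP2), a relative of DDX58 without signalling domains, was at a mean of 1.11 ± 0.268 CPM in WT tumours, 5.94 ± 1.05 in het1, 1.93 ± 0.797 in het2 and 2.28 ± 0.258 in homo (SD, n = 4), and rose in each (2.42 ± 0.24, 0.79 ± 0.24 and 1.03 ± 0.24), but without replicate 4 its het2 value of 0.50 was not called (adjusted p 0.0579). STING1, the adaptor of cytosolic DNA sensing, was at 0.667 ± 0.146 CPM in WT tumours and 2.47 ± 0.245 in het1, and also rose in each (1.89 ± 0.21, 1.02 ± 0.22 and 1.05 ± 0.22). MAVS, the adaptor of RNA sensing, fell in each (-0.51 ± 0.06, -0.48 ± 0.06 and -0.35 ± 0.06). Without replicate 4 the het2 counts were 1 and 2, with STING1 at 0.88 and MAVS at -0.46.

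Among 9 negative regulators, 4 rose in each line at day 30, and 0, 1 and 1 fell in het1, het2 and homo, against 24.4% to 27.1% of all genes that rose and 24.8% to 27.7% that fell. SOCS3, an inhibitor of JAK kinases downstream of cytokine receptors, was at 3.18 ± 0.125 CPM in WT tumours, 18.2 ± 0.715 in het1, 16.7 ± 4.01 in het2 and 24.8 ± 5.00 in homo, and rose by 2.52 ± 0.16, 2.39 ± 0.15 and 2.96 ± 0.16. It was raised in the cultured lines as well (1.42 ± 0.05, 1.17 ± 0.05 and 1.89 ± 0.05). Of 27 further interferon-induced genes tested at day 30, 8 rose and 9 fell in het1, 12 and 4 in het2, and 4 and 13 in homo, with medians of 0.08, 0.19 and -0.31. Of all genes, 26.8% rose and 24.8% fell in het1, 24.4% and 24.8% in het2, and 27.1% and 27.7% in homo. Without replicate 4, 10 of 28 rose and 6 fell in het2, with a median of -0.02, and SOCS3 was at 2.42. IFI16, a DNA-binding interferon target, was at 10.4 ± 0.837 CPM in WT tumours, 30.0 ± 3.74 in het1 and 23.8 ± 4.24 in het2, and rose in both (1.52 ± 0.12 and 1.19 ± 0.12, 1.07 without replicate 4). CASP1, the inflammatory caspase, was at 0.987 ± 0.283 CPM in WT tumours, 0.0131 ± 0.0106 in het1 and 0.0285 ± 0.0238 in homo, and fell in het1 and homo (-6.08 ± 0.53 and -4.95 ± 0.47). The size of these falls rests on a few reads in the het1 and homo tumours.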

How the data were processed

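RNA was sequenced from cultured A549 lines and xenograft tumours, as poly(A) RNA with a KAPA stranded kit per the labels' protocols. The authors deposited read counts per Ensembl gene in 3 tables (cells, day 30 tumours, treated tumours), made with bcl2fastq, HISAT2 and HTSeq on hg38 per the submitters' processing notes. For versions, annotation, strand setting and mouse reads, details were not given in the sources used here. Antisense and overlapping genes may therefore share reads, and mouse reads from host cells may be counted in part.

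Ensembl identifiers were matched to gene symbols. Counts were scaled by TMM, filtered with filterByExpr and tested with the robust quasi-likelihood test of edgeR 4.0.16 (R 4.3.3), over all groups of a table, with Benjamini-Hochberg adjustment over all genes tested and a threshold of 0.05. Tumours and cells were compared in a joint fit of both tables. SE is the log2 fold change over the square root of F, and SDs are over libraries. Alternatives were RLE size factors, DESeq2 1.42.0, other filters, the compared groups alone, a replicate block, a fold threshold and leaving out each library. The scripts were tested on simulated data.

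The members and the pathway and marker lists were chosen with earlier results of these data known. One gene of the pathway lists is not reported here. Named with values in every library were, in each comparison, up to 6 called members with the highest and up to 6 with the lowest log2 fold change among those whose groups did not overlap and whose mean reached 1 CPM in a group (for interactions up to 4, without the overlap rule), the 6 widest ranges between tumours and the 6 highest mean levels. Members named outside that rule were chosen after their values were seen. Replicate numbers do not pair libraries: same-numbered libraries had median correlations of deviations of -0.01 for cells, -0.01 for untreated tumours and -0.02 for treated ones.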

Additional observations from a re-analysis of the deposited data

Results flagged for a closer look

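Among the 33 members named with values in every library, 38 of 233 sets of 4 tumours (16.3%) had a highest or lowest tumour whose gap to the next one was an unusually large share of the whole range. Chance alone flags about 1 set in 20, and the members of 1 tumour are not independent of each other. The 33 members include the 6 named for the widest ranges between tumours, all of them in het2 at day 30. The flagged share therefore depends in part on that choice and cannot be set against the chance rate. The value given is that share, in CPM.

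The het2 day 30 tumour of replicate 4 was the highest in 18 of these sets. The share was 0.961 for IFIT3, 0.945 for STAT2, 0.924 for IFIT1, 0.923 for IFIT2, 0.915 for IFI44 and for HERC5, 0.914 for IFI44L, 0.91 for MX2 and 0.907 for ISG15. It was 0.897 for IFI27, 0.893 for CMPK2, 0.89 for IFITM3, 0.884 for IFI6, 0.852 for USP18, 0.844 for IFITM1, OAS2 and BST2, and 0.831 for IFIH1. The het1 DMSO tumour of replicate 5 was the lowest in 8 sets, with 0.933 for IFIT2, 0.886 for IFI44L, 0.883 for IFIH1, 0.875 for OAS3, 0.856 for OAS1, 0.844 for IFI6, 0.839 for IFI27 and 0.835 for CMPK2.

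The other 12 were scattered. In WT day 30 tumours, replicate 0 was high in ISG15 (0.91) and low in OAS1 (0.838), replicate 1 low in IFIT2 (0.853) and replicate 2 high in IFI27 (0.885). In het1 day 30 tumours, replicate 2 was high in IFI44 (0.864), and replicate 4 was low in GBP2 (0.834) and high in USP18 (0.836). In homo, replicate 1 was high in GBP3 (0.871) and low in IRF1 (0.88). Under treatment, WT DMSO replicate 2 was high in GBP3 (0.94), and WT SAHA replicate 6 was low in IFIT5 (0.899) and high in IFITM2 (0.903).

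The difference between tumour and culture differed from that of WT, by the interaction test of edgeR, in these members on the log2 scale. In het1 it was 3.28 for IFITM1, 2.23 for OAS1, 2.03 for IFITM3, 1.76 for IFITM2, -2.28 for GBP1, -1.51 for IFIH1, -1.22 for GBP2 and -1.20 for SAMD9L. In het2 it was 5.10 for OAS1, 3.88 for IFITM1, 3.00 for ISG15, 2.19 for IFITM3, -2.81 for GBP1, -2.10 for SAMD9L, -1.70 for GBP2 and -1.49 for IFIT2. In homo it was 4.13 for OAS1, 2.95 for IFITM1, 2.75 for IFITM2, 2.43 for IFITM3, -3.34 for GBP1, -3.14 for MX1, -2.47 for CMPK2 and -1.92 for IFIH1.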

How the results depend on the processing

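No named member changed direction under any alternative run. Of 784 values of named members under other settings, 778 kept their call and 6 lost it, and of 1098 with single libraries left out, 1072 kept it and 26 lost it. Levels without TMM were within 1 SD for 365 of 396.

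Asking for a log2 fold change of at least 1 left 10 members raised and 1 lowered in het1 cells, 2 lowered in het2 cells, and 8 raised and 5 lowered in homo cells. In day 30 tumours it left 0 lowered in het2 and 3 raised and 7 lowered in homo, and under DMSO 18 raised and 1 lowered in het1. For SAHA in het1 it left 0 raised and 1 lowered, for tumours against cells 0 lowered in WT and in het2 and 1 in homo, and for the interactions 5 below 0 in het1, 4 below in het2, and 5 above and 8 below in homo. Fitting only the groups compared gave 15 members raised in homo tumours. DESeq2 called 1 member lowered by SAHA in WT and 3 below 0 in the SAHA interaction, where a filter of at least 1 CPM gave 1. Without a filter SAHA lowered 7 in het1. The causes were not tested, and shares of all genes are not given for the runs with other fits, tools or filters.

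With the replicate number as a block, SAHA in het1 raised 0 members and lowered 7. The numbers do not pair the libraries, and no other count of members changed by over 1.5 times under the block.

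Leaving out single libraries gave 5 to 9 raised and 10 to 14 lowered in homo tumours, 3 to 6 lowered in het2 tumours, 0 to 1 lowered by SAHA in WT, 0 to 1 raised and 4 to 15 lowered in het1, 0 to 1 above and 0 to 2 below 0 in the SAHA interaction, 1 to 2 lowered in het2 tumours against cells, and 9 to 16 below 0 in the het2 interaction. The WT call came without DMSO replicate 3, and the counts of 6, 2 and 16 in het2 came without replicate 4. In the SAHA interaction, 2 below 0 came without het1 DMSO replicate 5 or WT SAHA replicate 6. The median SD ran from 0.116 to 0.552 in het2 and from 0.0976 to 0.308 in het1 DMSO tumours. Counting error limits members under about 1 CPM, such as IFI44L, MX2, BST2 and XAF1 in WT.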
